A study of Ramazzottius varieornatus with 18 samples.

Results

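Juveniles of the tardigrade Ramazzottius varieornatus sampled on the fifth day (Juvenile 5d) were compared with those of the third day (Juvenile 3d), the days on either side of Juvenile 4d, to ask which transcripts still differed once that day had passed. The members were the libraries labelled with these days, 6 of the 18 juvenile libraries, with 3 libraries for each day, and all transcripts were followed, of which 10436 of 14532 passed the filter on low counts and were tested. The study sequenced the juvenile stage day by day, from Juvenile 2d to Juvenile 7d. Every library was whole-body RNA of strain YOKOZUNA-1 from animals reared on agar and fed the alga Chlorella vulgaris, with no treatment given in the labels, which separate the groups by age alone. The number of animals in a library is not given in the sources used here, nor whether replicates came from separate cultures, so p-values measure only the spread between these libraries.

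Arthropods and their relatives shed their cuticle to grow, and in insects a pulse of the steroid 20-hydroxyecdysone starts each molt. The hormone binds a pair of nuclear receptors, EcR and USP (RXR in vertebrates), which switches on early genes such as E74 and E75 and a series of further nuclear receptors, HR3, HR4 and Ftz-F1, each acting in its own part of the cycle. Tardigrades molt throughout life, and they carry protein families that other animals lack, among them the cytosolic and secretory abundant heat soluble proteins (CAHS and SAHS), which stay in solution when heated and are studied for their part in survival of drying.

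A transcript was called when edgeR's quasi-likelihood test, fitted to all 18 libraries, gave a Benjamini-Hochberg adjusted p of up to 0.05, and levels are given as TPM, which corrects for coding length and scales each library to the same total. Library totals were similar on both days, 3661738 to 4673295 estimated counts at Juvenile 3d and 3383690 to 3580619 at Juvenile 5d, and between 1250604 and 5095736 over all libraries. Pearson's r of log2(TPM + 1) between libraries of the same day was 0.960 to 0.971 at Juvenile 3d and 0.961 to 0.967 at Juvenile 5d, against 0.841 to 0.900 between the days, across transcripts, which are not independent replicates. Libraries of Juvenile 6d and 7d differed more among themselves, Juvenile 6d replicate 1 and Juvenile 7d replicate 3 most, and they entered the shared estimate of the spread. The biological coefficient of variation was 33.5% with all 18 libraries and 22.9% with the 6 libraries of Juvenile 3d and 5d alone, so counts from the smaller fit are given beside those of the main one.

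Between Juvenile 3d and 5d, 2036 transcripts were called, 19.5% of those tested, with 1204 higher at Juvenile 5d (11.5%) and 832 lower (7.97%). The rises were larger than the falls. The median log2 fold change was 1.42 among the transcripts called higher, 858 of which rose by more than 1 and 247 by more than 3, and -0.94 among those called lower, where 381 fell by more than 1 and 40 by more than 3. Over all transcripts tested the median was -0.02. With only the libraries of Juvenile 3d and 5d in the fit, 3223 of 9869 transcripts were called (32.7%), 1761 higher (17.8%) and 1462 lower (14.8%). With those of Juvenile 2d to 5d 3744 of 10232 were called (36.6%), 2066 higher (20.2%) and 1678 lower (16.4%). When Juvenile 3d replicates 2 and 3 were left out in turn, the main fit called 1178 and 1243 transcripts. Leaving out Juvenile 5d replicates 1 and 2 gave 1230 and 1231.

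**Figure D1:**
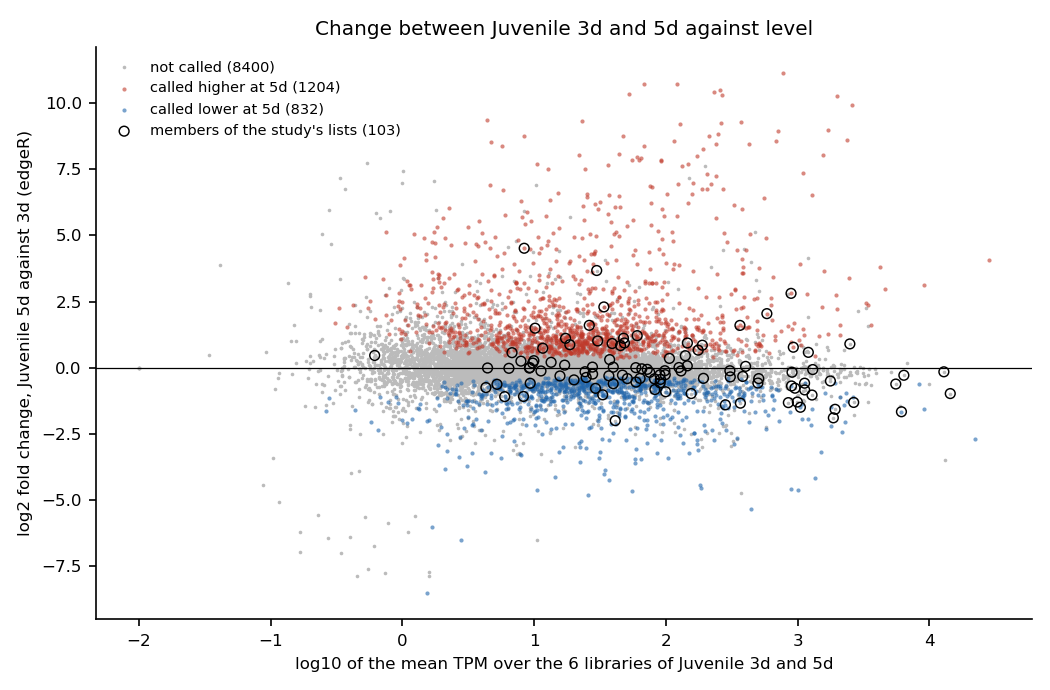
Each point is 1 of the 10436 transcripts tested, with the log10 of its mean TPM over the 6 libraries of Juvenile 3d and 5d on the x axis and its log2 fold change (edgeR) on the y axis, the 1204 called higher in red, the 832 called lower in blue and the 103 tested members of the study's lists ringed. The red points reach log2 fold changes over 10, whereas most blue points lie above -5, and the ringed members reach neither end of the range of levels.

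The share of transcripts called grew with the level. Split by mean TPM over the 18 libraries into 4 groups of 2609 transcripts, 12.2%, 18.1%, 22.7% and 25.2% were called, from the lowest to the highest group. In the same order the median standard error of the log2 fold change was 0.43, 0.26, 0.24 and 0.27. A change of a given size was thus harder to call in the lowest group. In the lowest group 223 were called higher and 94 lower, and in the highest 339 and 318. The median coding length was 1299 bases for the transcripts called higher, 1206 for those called lower and 1302 for all tested.

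The transcripts called higher took up a large part of the message pool at Juvenile 5d. Together they held 5.35% to 6.01% of the TPM of a Juvenile 3d library, 6.85% to 8.21% at Juvenile 4d and 25.5% to 31.5% at Juvenile 5d. At Juvenile 6d and 7d the share was 7.30% to 14.8%. Those called lower held 20.6% to 22.1% at Juvenile 3d, 7.07% to 8.33% at Juvenile 5d. In the libraries of Juvenile 4d this share was 12.6% to 15.5%, and in those of Juvenile 6d and 7d it was 15.6% to 20.4%. The shares at Juvenile 3d and 5d follow from how the transcripts were chosen and carry no test. The other days were not in that contrast, but their libraries entered the spread behind the calls. On those days the shares lay between the extremes that Juvenile 3d and 5d set, which the choice makes more likely.

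**Figure D2:**
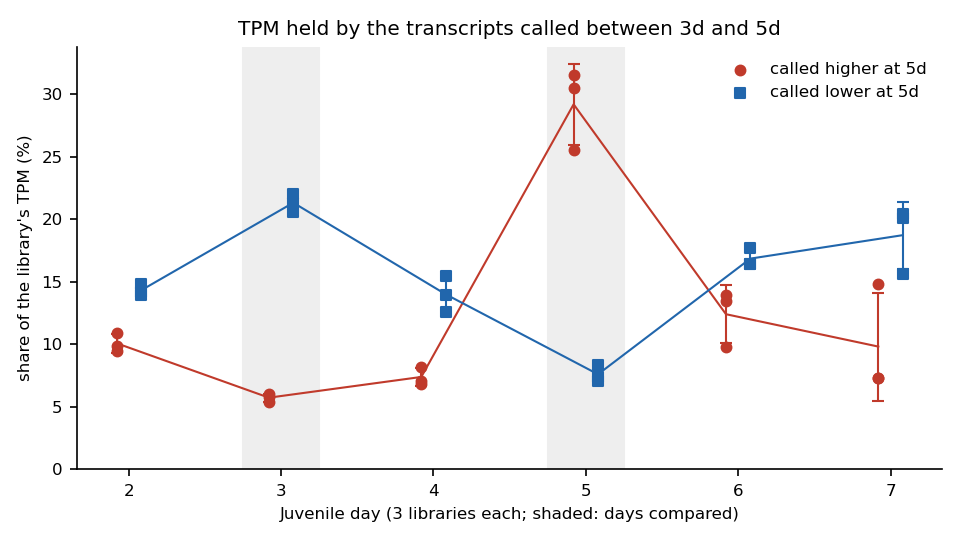
Points are the 18 libraries by juvenile day, with the share of the library's TPM in percent held by the 1204 transcripts called higher (red circles) and the 832 called lower (blue squares) on the y axis, and lines join the daily means with bars of 1 SD (n = 3). The red share is 25.5% to 31.5% at Juvenile 5d and no more than 14.8% in any library of another day.

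Much of this share came from few transcripts. Among those called higher, 45 had a mean over 1000 TPM at Juvenile 5d, and the 20 most abundant there held 12.7% to 16.7% of the TPM of each Juvenile 5d library, against 1.31% to 1.64% at Juvenile 3d and 0.957% to 2.10% at Juvenile 4d. Among those called lower, 29 had a mean over 1000 TPM at Juvenile 3d, and the 20 most abundant held 10.7% to 12.6% of the TPM at Juvenile 3d and 3.09% to 3.75% at Juvenile 5d.

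Some transcripts went from nearly no reads to 10 or more in each library. For 56 transcripts the count was up to 3 in each Juvenile 3d library and at least 10 in each Juvenile 5d library, and 55 of them were called. Of the 56, 17 were still at up to 3 counts in each Juvenile 4d library, and 1 had already reached 10 in each of them. The reverse, at least 10 counts in each Juvenile 3d library and up to 3 in each Juvenile 5d library, was found for 6 transcripts, of which 5 were called. No member of the study's lists was among these. Both sets were chosen by the counts that the test used, so the calls among them are a description.

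The largest fitted changes are given here for called transcripts outside the study's lists, which have no name in the sources used here. Those eligible had no overlap between the days, whole counts in the 6 libraries and a mean of at least 10 TPM on the higher day. For g12433.t1 the levels were 0, 0 and 1.66 TPM in the Juvenile 3d libraries and 2159.9, 2239 and 262 TPM in the Juvenile 5d libraries. It rose by 11.15 (± 2.25 SE, edgeR adjusted p = 0.00363) on the log2 scale. Its Juvenile 5d libraries all lay far above the Juvenile 3d ones but differed among themselves. The sum of 8540 counts against 4, scaled for library size, gave a ratio of 2482 (95% exact interval 969 to 9110.5, for counting error only). The second, g9030.t1, had 0, 0 and 0.175 TPM in the Juvenile 3d libraries and 160.0, 149.8 and 96.2 TPM in the Juvenile 5d libraries, a rise by 10.75 (± 1.28 SE, edgeR adjusted p = 0.000166) on the log2 scale. Its 3572 counts against 2 gave a scaled ratio of 2076 (574 to 17149). At Juvenile 4d both were still low, with means of 2.40 ± 1.83 and 1.08 ± 1.27 TPM (SD, n = 3), and at Juvenile 6d they were at 1.09, 3.71 and 259.8 and at 0.691, 0.522 and 12.8 TPM.

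Among transcripts chosen in the same way, the largest falls were those of g8459.t1 and g9651.t1. The first had 881, 726 and 999 TPM in the Juvenile 3d libraries and 17.8, 15.2 and 30.0 TPM in the Juvenile 5d libraries. On the log2 scale the change was -5.35 (± 1.02 SE, edgeR adjusted p = 0.00258). Its groups lay far apart, and its Juvenile 4d libraries, at 71.3, 102 and 104 TPM, stood between them. The second had 44.8, 45.7 and 58.9 TPM in the Juvenile 3d libraries and 4.79, 0 and 0 TPM in the Juvenile 5d libraries. It fell by 4.81 (± 0.88 SE, edgeR adjusted p = 0.00396) on the log2 scale and was at 0 in each library of Juvenile 6d and 7d, where a count of 0 allows up to 0.589 to 2.40 CPM (counts divided by the library's sum and rescaled). Its 109 counts at Juvenile 3d against 3 at Juvenile 5d gave a ratio of 31.3 (10.4 to 153.9), scaled for library size. All 4 transcripts were called in each of the 18 fits that left out 1 library.

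The Juvenile 4d mean was then placed against those of the flanking days. Of the 1204 transcripts called higher, 697 (57.9%) had a Juvenile 4d mean between those of Juvenile 3d and 5d, 170 (14.1%) were higher at Juvenile 4d than on both days, and 337 (28.0%) were lower at Juvenile 4d than on both. Of the 832 called lower, 477 (57.3%) lay between, 322 (38.7%) were highest at Juvenile 4d and 33 (3.97%) lowest. For all transcripts tested the shares were 29.8% between, 48.4% above both and 21.7% below both. A choice by the difference between the flanking days makes a place between them more likely, so these shares too are a description. The placement used TPM, where the median change from Juvenile 3d to 4d was 0.14 (limma on log2(TPM + 1)), and -0.01 in edgeR. From Juvenile 4d to 5d these medians were -0.19 and -0.03. On the log2(TPM + 1) scale the Juvenile 4d mean was nearer to Juvenile 3d than to Juvenile 5d for 798 of the 1204 and for 675 of the 832. The same number over all transcripts was not determined. Juvenile 4d against 3d and Juvenile 5d against 4d, which share libraries with the comparison, gave 1308 calls (12.5%, with 7.17% higher and 5.37% lower) and 2591 calls (24.8%, with 13.0% higher and 11.9% lower).

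The daily means were also ranked over the 6 days. Of the 1204 transcripts called higher, 792 (65.8%) had their highest daily mean at Juvenile 5d, against 13.5% of all transcripts tested, and 454 of the 832 called lower (54.6%) had their lowest daily mean there, against 14.00% of all. These shares follow in part from the choice of the transcripts, since one called higher at Juvenile 5d than 3d had its highest mean at Juvenile 3d in 0 of 1204 cases, and they carry no test. By Juvenile 6d the mean was nearer to the Juvenile 3d than to the Juvenile 5d level for 496 of the 1204 and 430 of the 832. By Juvenile 7d these numbers were 594 and 610. They were not determined over all transcripts, and libraries of Juvenile 6d and 7d differed among themselves, so they are a description.

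The calls were also followed in pairs of days that share no library with the comparison. In Juvenile 4d against 2d, 308 of the 1204 transcripts (25.6%) were called higher and 421 (34.97%) lower. Of all transcripts tested 49.5% were called there, 25.1% higher and 24.3% lower. Of the 832 called lower, 272 (32.7%) were called higher at Juvenile 4d than at 2d and 158 (19.0%) lower. In Juvenile 6d and 7d against 2d, 386 of the 1204 (32.1%) were called higher and 228 (18.9%) lower, beside 49.9% called of all tested, 28.2% higher and 21.8% lower. Of the 832, 208 were higher there and 175 (21.0%) lower. Among the transcripts called higher at Juvenile 5d, those lower at Juvenile 4d than 2d outnumbered those higher, while among those called lower it was the other way round.

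Genes that carry adjacent numbers in their identifiers were also compared. A neighbour called higher was found for 287 of the 1130 called-higher genes that had a tested neighbour (25.4%), against 19.0% of all genes. For called-lower genes a neighbour called lower was found for 138 of 775 (17.8%), against 13.2%.

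The study's lists hold 113 transcripts, of which 103 were tested. Of these 11 were called higher and 10 lower, 20.4%, a share near the 19.5% of all transcripts, and the number ranged from 10 to 33 with 1 library left out. With the libraries of Juvenile 3d and 5d alone 20 of the 103 were higher and 22 lower, beside 17.8% and 14.8% of all transcripts in that fit. With those of Juvenile 2d to 5d 22 were higher and 28 lower, beside 20.2% and 16.4%. In these fits the lower calls were a larger share of the lists than of all transcripts, unlike the near match of the main fit's total. In whole animals a lower level can mean fewer cells of a type or less RNA per cell, which cannot be told apart here.

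**Figure D3:**
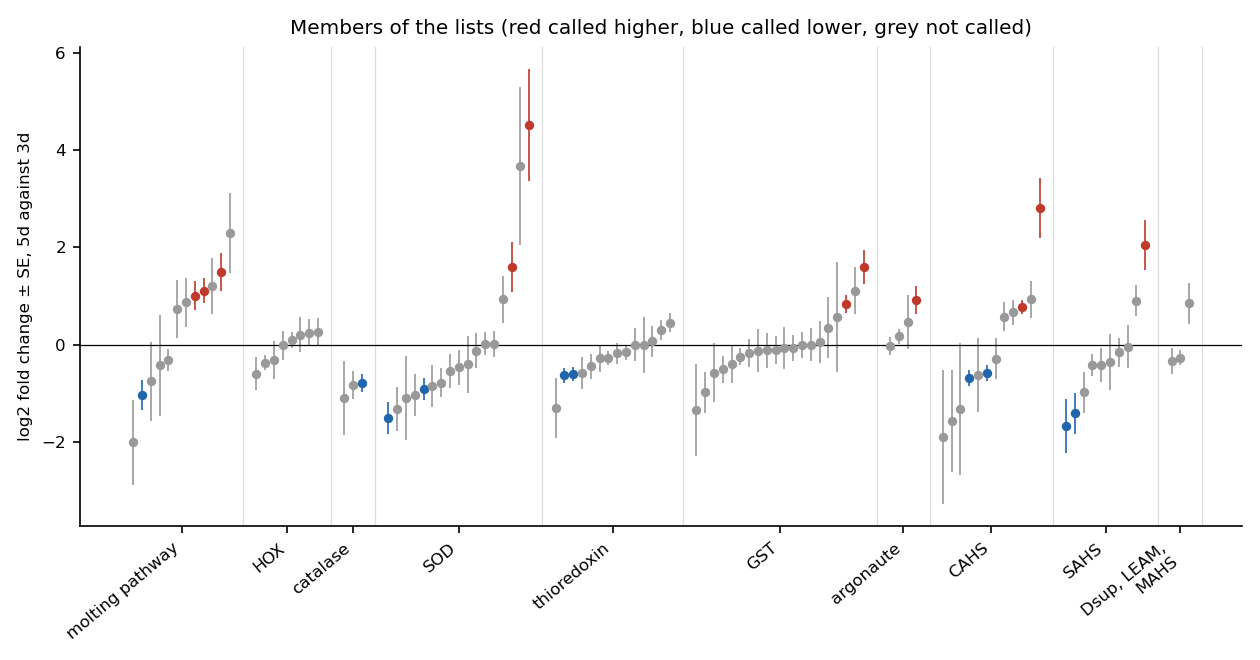
The log2 fold change between Juvenile 3d and 5d (edgeR) of each of the 103 tested list members, with bars of 1 standard error, grouped by list and ordered by value, with the 11 called higher in red, the 10 called lower in blue and the rest in grey. Molting pathway transcripts spread from -2.01 to 2.29, whereas the 8 HOX transcripts lie between -0.60 and 0.26.

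Of the 12 molting pathway transcripts, 3 were called higher (E75, HR4 and a USP/RXR transcript), 1 lower (sad) and 8 were not called. Among all tested, 11.5% were called higher and 7.97% lower. With 1 library left out, 1 to 5 of the 12 were called. The list's median log2 fold change was 0.80, beside -0.02 for all transcripts tested. With the libraries of Juvenile 2d to 5d 6 were called higher and 2 lower, beside 20.2% and 16.4% of all transcripts. E74, EcR g8354.t1, CYP18A1 and E78 were then called too. In 10 of the 12 the Juvenile 4d mean TPM was above both flanking days, as it was for 48.4% of all transcripts tested. In edgeR, which scales libraries otherwise, E78 changed by -0.14 (± 0.83 SE) from Juvenile 3d to 4d. There E75 changed by 0.00 (± 0.25 SE) from Juvenile 4d to 5d. The log2 fold change was positive for EcR g8354.t1, E74, E75, HR4, CYP18A1 and both USP/RXR transcripts. It was negative for bFtz-F1, HR3, E78, sad and EcR g12979.t1. In 7 of the 12 the libraries of the days did not overlap, 5 higher and 2 lower, beside 47.6% of all transcripts tested (22.7% higher and 24.8% lower).

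The early genes encode transcription factors that the receptor pair switches on directly in insects. E75 (g7221.t1, 1950 coding bases), a nuclear receptor, had 12.8, 12.8 and 7.65 TPM in the Juvenile 3d libraries and 26.6, 24.0 and 19.8 TPM in the Juvenile 5d libraries, with no overlap. Its log2 fold change was 1.11 (± 0.25 SE, edgeR adjusted p = 0.0077). It was called in each of the 18 fits with a library left out and with the 2 days alone (edgeR adjusted p = 0.00552), but not by limma on log2(TPM + 1) without a filter (adjusted p = 0.0503). Its Juvenile 4d libraries had 30.4, 23.8 and 26.8 TPM and overlapped with those of Juvenile 5d. Between Juvenile 4d and 5d its log2 fold change was 0.00 (± 0.25 SE, edgeR adjusted p = 1).

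E74 (g10224.t1), an ETS domain factor, had 22.1, 10.6 and 7.55 TPM in the Juvenile 3d libraries and 19.6, 26.7 and 25.4 TPM in the Juvenile 5d libraries. One Juvenile 3d library was at the level of the Juvenile 5d ones, so the days overlapped. The log2 fold change of 0.87 (± 0.50 SE, edgeR adjusted p = 0.258) did not pass the test (95% interval -0.21 to 1.94, not adjusted for the number of tests), although it did with the libraries of Juvenile 2d to 5d (edgeR adjusted p = 0.0487). E78 (g11712.t1), a nuclear receptor that the study's gene table lists as E75, had 58.1, 99.0 and 41.4 TPM in the Juvenile 3d libraries and 21.5, 2.62 and 24.7 TPM in the Juvenile 5d libraries. All of its Juvenile 5d libraries were below all of the Juvenile 3d ones, and the lowest was Juvenile 5d replicate 2. Its log2 fold change of -2.01 (± 0.87 SE, edgeR adjusted p = 0.122) was not called (interval -3.86 to -0.16). It was called with the libraries of Juvenile 2d to 5d (edgeR adjusted p = 0.0209).

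Among the later nuclear receptors, HR4 (g2273.t1) had 7.53, 6.45 and 2.34 TPM in the Juvenile 3d libraries and 15.5, 11.8 and 17.4 TPM in the Juvenile 5d libraries, with no overlap. Its log2 fold change was 1.49 (± 0.39 SE, edgeR adjusted p = 0.0156), after 35.5 ± 10.9 TPM (SD, n = 3) at Juvenile 4d. The call was lost when Juvenile 3d replicate 3 was left out, at an edgeR adjusted p of 0.0572, and with limma on log2(TPM + 0.1), at an adjusted p of 0.0537. HR3 (g6536.t1), which in Drosophila represses early genes and induces Ftz-F1, had 69.4, 188 and 27.4 TPM in the Juvenile 3d libraries and 58.0, 20.8 and 127 TPM in the Juvenile 5d libraries. Its libraries spread several-fold on each day and overlapped. The log2 fold change of -0.43 (± 1.04 SE, edgeR adjusted p = 0.826) had an interval from -2.65 to 1.80, which leaves its direction unknown.

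The gene bFtz-F1 (g4792.t1), the competence factor that in insects acts when the hormone has fallen again, had 3.80, 8.92 and 3.66 TPM in the Juvenile 3d libraries and 1.86, 4.77 and 2.79 TPM in the Juvenile 5d libraries. These days overlapped, and the change of -0.76 (± 0.81 SE, edgeR adjusted p = 0.571) on the log2 scale was not called (interval -2.48 to 0.97). Between them the Juvenile 4d libraries had 60.3, 43.6 and 55.1 TPM, above every library of both days. In Juvenile 5d against 4d it fell by 3.86 (± 0.84 SE, edgeR adjusted p = 0.00395) on the log2 scale.

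The receptors themselves behaved in different ways. USP/RXR g11953.t1 had 26.7, 17.4 and 17.1 TPM in the Juvenile 3d libraries and 35.0, 45.8 and 40.1 TPM in the Juvenile 5d libraries. There was no overlap, and the log2 fold change was 1.01 (± 0.30 SE, edgeR adjusted p = 0.0272). For the other transcript of that gene, g11953.t2, the values were 8.71, 13.1 and 4.58 TPM in the Juvenile 3d libraries and 22.9, 10.6 and 9.89 TPM in the Juvenile 5d libraries. These overlapped, and a log2 fold change of 0.73 (± 0.59 SE, edgeR adjusted p = 0.434) was not called. The authors' quantification divided reads between them in all 18 libraries. With the counts of the gene summed, the log2 fold change was 0.96 and the gene was called (edgeR adjusted p = 0.0238). The g11953.t1 call was lost in the fits without Juvenile 3d replicates 2 and 3 (edgeR adjusted p = 0.0976 and 0.0906) and Juvenile 5d replicates 2 and 3 (0.0911 and 0.0561). The 3 limma alternatives, on log2(TPM + 1), on log2(TPM + 0.1) and on the first without a filter, did not call it either (adjusted p = 0.0925, 0.0947 and 0.116).

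Of the EcR transcripts, g8354.t1 had 66.3, 28.0 and 16.7 TPM in the Juvenile 3d libraries and 86.7, 74.1 and 91.2 TPM in the Juvenile 5d libraries. Its days did not overlap, but the Juvenile 3d libraries differed widely and the log2 fold change of 1.21 (± 0.57 SE, edgeR adjusted p = 0.161) was not called (interval -0.02 to 2.43). With the libraries of Juvenile 2d to 5d it was (edgeR adjusted p = 0.0346). The other, g12979.t1, had 43.6, 35.7 and 44.0 TPM in the Juvenile 3d libraries and 36.6, 34.7 and 26.7 TPM in the Juvenile 5d libraries. These overlapped, with a change of -0.31 (± 0.23 SE, edgeR adjusted p = 0.386) on the log2 scale and an interval of -0.80 to 0.18.

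The enzymes that make and break down the hormone had changes of opposite sign. For sad (g2400.t1), in insects a P450 of the Halloween group that acts in ecdysteroid synthesis, the levels were 38.0, 59.6 and 36.7 TPM in the Juvenile 3d libraries and 21.2, 16.4 and 26.9 TPM in the Juvenile 5d libraries. All Juvenile 5d libraries were lower, with a log2 fold change of -1.03 (± 0.31 SE, edgeR adjusted p = 0.0321). This call was lost in the fits without Juvenile 3d replicates 2 and 3 (edgeR adjusted p = 0.153 and 0.0534) and Juvenile 5d replicates 1 and 2 (0.102 and 0.135). It was also lost in the 3 limma alternatives (adjusted p = 0.0605, 0.0638 and 0.0760). CYP18A1 (g13718.t1), in insects a P450 that inactivates 20-hydroxyecdysone, had 16.0, 9.92 and 8.64 TPM in the Juvenile 3d libraries and 84.1, 39.3 and 44.9 TPM in the Juvenile 5d libraries. Each Juvenile 5d library was above every Juvenile 3d library. The log2 fold change of 2.29 (± 0.83 SE, edgeR adjusted p = 0.0657) did not pass the test in the main fit (interval 0.53 to 4.06). It did with the libraries of the 2 days alone (edgeR adjusted p = 0.00265) and with those of Juvenile 2d to 5d (edgeR adjusted p = 0.000572).

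**Figure D4:**
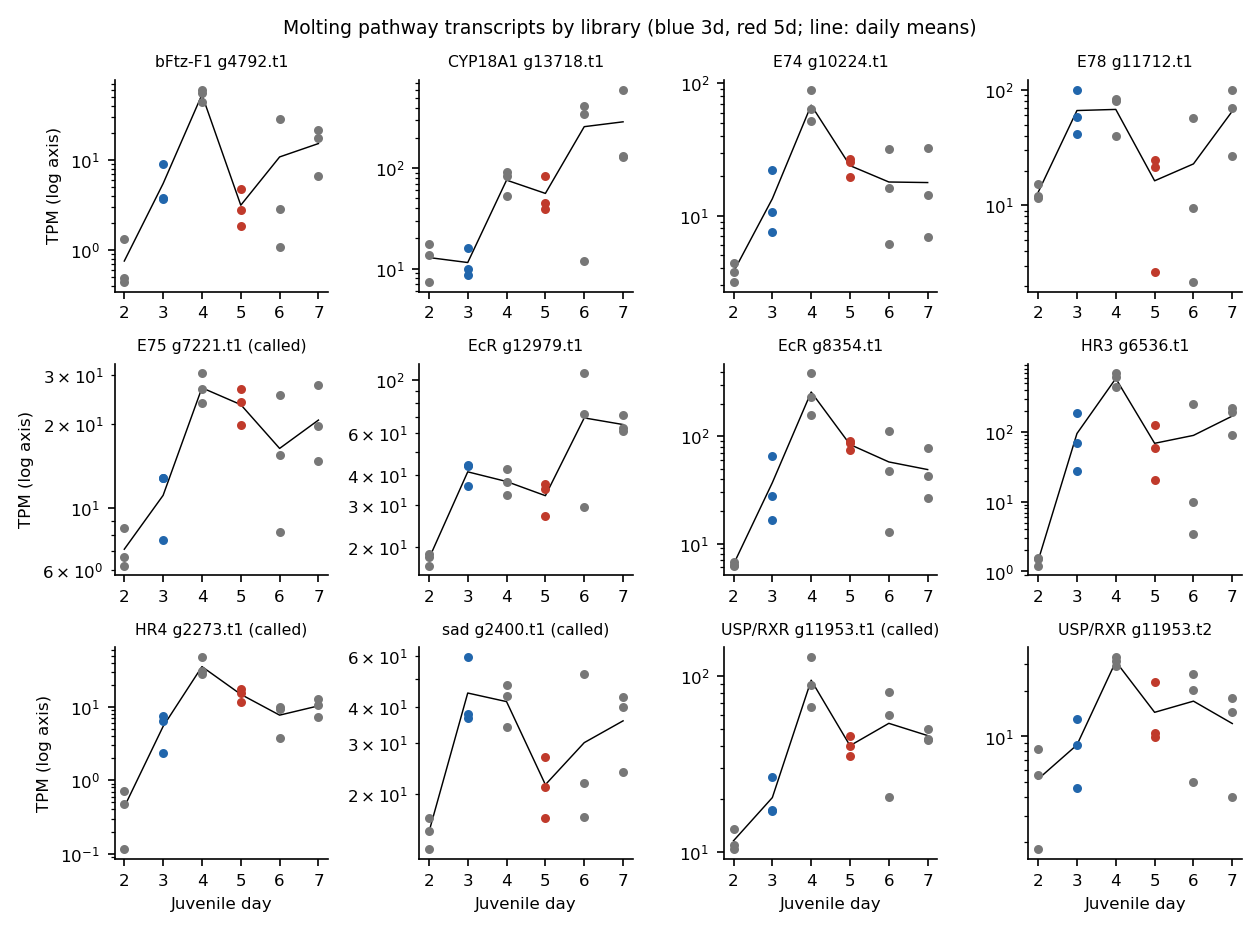
TPM of the 12 molting pathway transcripts in each of the 18 libraries on a log axis, by juvenile day, with Juvenile 3d in blue, Juvenile 5d in red, the other days in grey and a line through the daily means. In 10 of the 12 panels the Juvenile 4d mean lies above both flanking days, and the 4 panels marked as called are E75, HR4, sad and USP/RXR g11953.t1.

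The HOX list holds 8 patterning genes, and none was called, beside 19.5% of all transcripts tested. With the libraries of the 2 days alone none was called either. Log2 fold changes ran from -0.60 to 0.26 with a median of 0.04. The libraries overlapped for all 8, whereas 47.6% of all transcripts tested did not overlap. The most abundant over the 18 libraries was Hox10_abdb-1 (g6414.t1), a posterior Hox gene, with 29.6, 24.6 and 30.0 TPM in the Juvenile 3d libraries and 27.6, 18.7 and 18.2 TPM in the Juvenile 5d libraries. Its log2 fold change was -0.37 (± 0.16 SE, edgeR adjusted p = 0.111), and of the fits with a library left out 1 called it, that without Juvenile 5d replicate 1 (edgeR adjusted p = 0.0369). For 7 of the 8 the Juvenile 4d mean TPM was above both flanking days, beside 48.4% of all transcripts tested. For Hox4_disformed (g2153.t1), which is among them, the edgeR change from Juvenile 4d to 5d was 0.14 (± 0.36 SE).

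Catalases remove hydrogen peroxide, and the 3 catalase transcripts had log2 fold changes from -1.09 to -0.79. In each of them every Juvenile 5d library was below every Juvenile 3d library, as was the case for 24.8% of all transcripts tested. Of the 3 transcripts 1 was called lower, beside 7.97% of all transcripts tested. That was g3478.t1, with 37.6, 39.4 and 34.5 TPM in the Juvenile 3d libraries and 22.3, 16.1 and 25.5 TPM in the Juvenile 5d libraries. It fell by 0.79 (± 0.19 SE, edgeR adjusted p = 0.00933) on the log2 scale, after 67.3 ± 9.02 TPM at Juvenile 4d, and was not called when Juvenile 5d replicate 2 was left out (edgeR adjusted p = 0.0614). For g4317.t1 the levels were 111, 95.7 and 112 TPM in the Juvenile 3d libraries and 43.0, 64.4 and 68.7 TPM in the Juvenile 5d libraries. A log2 fold change of -0.83 (± 0.29 SE, edgeR adjusted p = 0.0605) was not called, but it passed with the 2 days alone (edgeR adjusted p = 0.0282) and in DESeq2 (adjusted p = 0.0411). The third, g5941.t1, had 12.5, 12.7 and 8.87 TPM in the Juvenile 3d libraries and 5.52, 1.88 and 8.28 TPM in the Juvenile 5d libraries, a change of -1.09 (± 0.76 SE, edgeR adjusted p = 0.354) on the log2 scale. With the libraries of Juvenile 2d to 5d it was called (edgeR adjusted p = 0.0342). Summed over the 3 transcripts, the level was 147.7 to 161.5 TPM at Juvenile 3d and 70.9 to 102.5 TPM at Juvenile 5d.

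Superoxide dismutases (SOD) turn superoxide into hydrogen peroxide and oxygen. Of the 17 SOD transcripts 2 were called higher, 2 lower and 13 were not called, beside 11.5% higher and 7.97% lower of all tested. Their median log2 fold change was -0.47. With the libraries of the 2 days alone 4 were higher and 8 lower, beside 17.8% and 14.8% of all transcripts in that fit. The list's summed level was 7537 to 8593 TPM at Juvenile 3d and 4156 to 4959 TPM at Juvenile 5d, with 3751 to 5017 TPM at Juvenile 4d.

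The SOD transcripts g11594.t1 and g11595.t1, neighbours by number, moved in opposite directions. The first, the most abundant of the list over the 18 libraries, had 1507, 1609 and 1542 TPM in the Juvenile 3d libraries and 488, 469 and 678 TPM in the Juvenile 5d libraries. Without overlap it changed by -1.50 (± 0.33 SE, edgeR adjusted p = 0.00632) on the log2 scale, and it was called lower in each of the 18 fits with a library left out. The second had 174, 162 and 205 TPM in the Juvenile 3d libraries and 738, 517 and 392 TPM in the Juvenile 5d libraries, after 18.8, 36.3 and 55.5 TPM at Juvenile 4d. Its days did not overlap, and the log2 fold change was 1.60 (± 0.52 SE, edgeR adjusted p = 0.0426). This call was lost in 9 of the 18 fits with a library left out, where the edgeR adjusted p reached 0.138. These were the 3 libraries of Juvenile 2d, the 3 of Juvenile 3d, Juvenile 4d replicate 2 and Juvenile 5d replicates 1 and 2. Reads were divided with other transcripts in 3 libraries for both.

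The adjacent gene by number, g11593, has a pair of transcripts between which reads were divided in 14 libraries. Transcript g11593.t1 had 2.08, 0 and 0 TPM in the Juvenile 3d libraries and 19.0, 11.1 and 18.3 TPM in the Juvenile 5d libraries. The sums were 6 counts against 126, after scaling for library size a ratio of 24.4 (95% exact interval 10.9 to 67.8, for counting error only). The fitted log2 fold change was 4.52 (± 1.15 SE, edgeR adjusted p = 0.0133). With the counts of the gene summed it was 1.11 and the call was lost (edgeR adjusted p = 0.0914), as it was in the fits without Juvenile 3d replicates 2 and 3 (0.0573 and 0.0551). The fourth called transcript, g5842.t1, had 118, 139 and 133 TPM in the Juvenile 3d libraries and 70.5, 59.2 and 76.8 TPM in the Juvenile 5d libraries. It was lower in all Juvenile 5d libraries and fell by 0.92 (± 0.22 SE, edgeR adjusted p = 0.0104) on the log2 scale. It was not called when Juvenile 5d replicate 2 was left out (edgeR adjusted p = 0.0600).

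Thioredoxins reduce disulfide bonds in other proteins. Of 14 transcripts on that list 2 were called lower, none higher and 12 were not called, beside 7.97% lower and 11.5% higher of all. In 11 of the 14 the log2 fold change was negative, and the median was -0.23, beside -0.02 for all transcripts tested. Of the called ones g10732.t1 had 43.3, 53.6 and 47.2 TPM in the Juvenile 3d libraries and 33.0, 28.4 and 33.3 TPM in the Juvenile 5d libraries, and it fell by 0.61 (± 0.14 SE, edgeR adjusted p = 0.00848) on the log2 scale. For g13167.t1 the levels were 6.14, 7.39 and 5.60 TPM in the Juvenile 3d libraries and 4.55, 3.64 and 3.99 TPM in the Juvenile 5d libraries, and it fell by 0.63 (± 0.15 SE, edgeR adjusted p = 0.01). Neither overlapped between the days. Both calls were lost when replicate 2 of Juvenile 3d was left out, with edgeR adjusted p = 0.0539 and 0.0613, and when replicate 2 of Juvenile 5d was (0.0503 and 0.0523). For g13167.t1 the 3 limma alternatives gave no call (adjusted p = 0.0705, 0.0749 and 0.0962). The most abundant was g11519.t1, with 1312, 1489 and 1447 TPM in the Juvenile 3d libraries and 584, 589 and 541 TPM in the Juvenile 5d libraries. Its groups did not overlap. It was not called, and its log2 fold change of -1.30 (± 0.62 SE, edgeR adjusted p = 0.163) passed the test with the 2 days alone (edgeR adjusted p = 0.000493).

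Glutathione S-transferases (GST) couple glutathione to reactive compounds. Of 20 tested members of the 21, 2 were called higher, none lower and 18 were not called, beside 11.5% higher and 7.97% lower of all tested. The median log2 fold change was -0.10. In 16 of the 20 the Juvenile 4d mean was below both, beside 21.7% of all transcripts tested. Side by side, with shared libraries, 9 of the 20 were called lower in Juvenile 4d against 3d (5.37% of all transcripts tested) and 7 were called higher in Juvenile 5d against 4d (13.0%). The summed level was 6232 to 7229 TPM at Juvenile 3d, 2748 to 3953 TPM at Juvenile 4d and 5083 to 5789 TPM at Juvenile 5d, so the Juvenile 5d libraries stayed below those of Juvenile 3d.

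The most abundant GST, g4017.t1, had 2064, 1911 and 2280.2 TPM in the Juvenile 3d libraries and 1276, 1584 and 1516 TPM in the Juvenile 5d libraries. Its log2 fold change of -0.51 (± 0.27 SE, edgeR adjusted p = 0.215) was not called (interval -1.09 to 0.07). Its Juvenile 5d libraries were all lower, and its Juvenile 4d libraries lower still or overlapping with them, at 875, 1329 and 1394 TPM. The called transcripts were less abundant. For g7671.t1 the levels were 36.4, 31.5 and 30.9 TPM in the Juvenile 3d libraries and 55.3, 59.3 and 58.1 TPM in the Juvenile 5d libraries, and it rose by 0.83 (± 0.19 SE, edgeR adjusted p = 0.00644) on the log2 scale. For g9609.t1 they were 14.1, 11.8 and 13.5 TPM in the Juvenile 3d libraries and 38.8, 30.5 and 48.5 TPM in the Juvenile 5d libraries, after 20.9, 32.2 and 17.9 TPM at Juvenile 4d. It rose by 1.60 (± 0.35 SE, edgeR adjusted p = 0.00589). Both were higher in every Juvenile 5d library and were called in each of the 18 fits that left out a library.

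Argonaute proteins carry small RNAs to their targets. Of the 7 argonaute transcripts 4 were tested, 1 was called higher and 3 were not called, beside 11.5% called higher of all tested. The 3 that were not tested had at most 1.33 TPM in any of the 18 libraries. The call was g11139.t1, annotated as argonaute-1 and the most abundant of the list, with 32.1, 25.4 and 24.5 TPM in the Juvenile 3d libraries and 52.8, 52.6 and 46.9 TPM in the Juvenile 5d libraries. Its days did not overlap, and the log2 fold change was 0.91 (± 0.28 SE, edgeR adjusted p = 0.0356). The call was lost when any 1 of the 6 libraries of Juvenile 3d and 5d was left out, where the edgeR adjusted p lay between 0.0524 and 0.108, and with limma on log2(TPM + 1) without a filter (adjusted p = 0.0571).

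The CAHS proteins form gels and filaments in drying cells. Of 12 tested members of the 15, 2 were called higher, 2 lower and 8 were not called, beside 11.5% higher and 7.97% lower of all tested. The list's median log2 fold change was -0.44. The summed level was 25983 to 31201 TPM at Juvenile 3d, 9383 to 13619.7 TPM at Juvenile 4d and 13259 to 24957 TPM at Juvenile 5d. Juvenile 5d replicate 1 had the lowest and replicate 3 the highest sum of that day, and none reached a Juvenile 3d library.

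The largest rise was that of g4307.t1, with 237, 184 and 252 TPM in the Juvenile 3d libraries and 1663, 1706 and 1302 TPM in the Juvenile 5d libraries. The groups lay far apart, with a log2 fold change of 2.81 (± 0.61 SE, edgeR adjusted p = 0.00578). At Juvenile 4d the levels were 84.0, 123 and 268 TPM and overlapped with those of Juvenile 3d. The other rise was g674.t1, with 724, 663 and 668 TPM in the Juvenile 3d libraries and 1288, 1083 and 1134 TPM in the Juvenile 5d libraries, after 1092, 964 and 927 TPM at Juvenile 4d. It rose by 0.77 (± 0.14 SE, edgeR adjusted p = 0.0016) on the log2 scale, without overlap. Both were called in each fit that left out a library.

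Both CAHS transcripts called lower changed by less than 1 on the log2 scale. For g13080.t1 the levels were 1244, 1031 and 1067 TPM in the Juvenile 3d libraries and 726, 654 and 664 TPM in the Juvenile 5d libraries, without overlap. It fell by 0.70 (± 0.16 SE, edgeR adjusted p = 0.00855) on the log2 scale and was called in each fit with a library left out. For g791.t1 they were 1452, 1311 and 1349.7 TPM in the Juvenile 3d libraries and 934, 865 and 858 TPM in the Juvenile 5d libraries, also without overlap. It fell by 0.59 (± 0.17 SE, edgeR adjusted p = 0.0232), and the call was lost when any 1 of the 6 libraries of Juvenile 3d and 5d was left out, where the edgeR adjusted p lay between 0.0580 and 0.101. The most abundant of the list, g3884.t1, had 7232, 5865 and 8239 TPM in the Juvenile 3d libraries and 3732, 6551 and 6775 TPM in the Juvenile 5d libraries. Its Juvenile 5d libraries overlapped with those of Juvenile 3d, and all were above the Juvenile 4d levels of 943, 1406 and 2783 TPM. The change of -0.29 (± 0.42 SE, edgeR adjusted p = 0.697) on the log2 scale was not called (interval -1.20 to 0.61).

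The most negative CAHS changes were not called. They are g612.t1, g7798.t1 and g675.t1, chosen here after their values were seen. For g612.t1 the levels were 2184, 3306 and 3365 TPM in the Juvenile 3d libraries and 224, 564 and 1552 TPM in the Juvenile 5d libraries. Its Juvenile 5d libraries were all lower but differed several-fold, and the change on the log2 scale was -1.90 (± 1.37 SE, edgeR adjusted p = 0.377). For g7798.t1 and g675.t1, which did not overlap either, the changes were -1.58 (± 1.05 SE, edgeR adjusted p = 0.333) and -1.32 (± 1.36 SE, edgeR adjusted p = 0.554). In all, 5 of the 12 were lower without overlap and 5 higher, beside 24.8% and 22.7% of all transcripts tested. With the libraries of Juvenile 2d to 5d 5 were called higher and 5 lower, beside 20.2% and 16.4%.

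**Figure D5:**
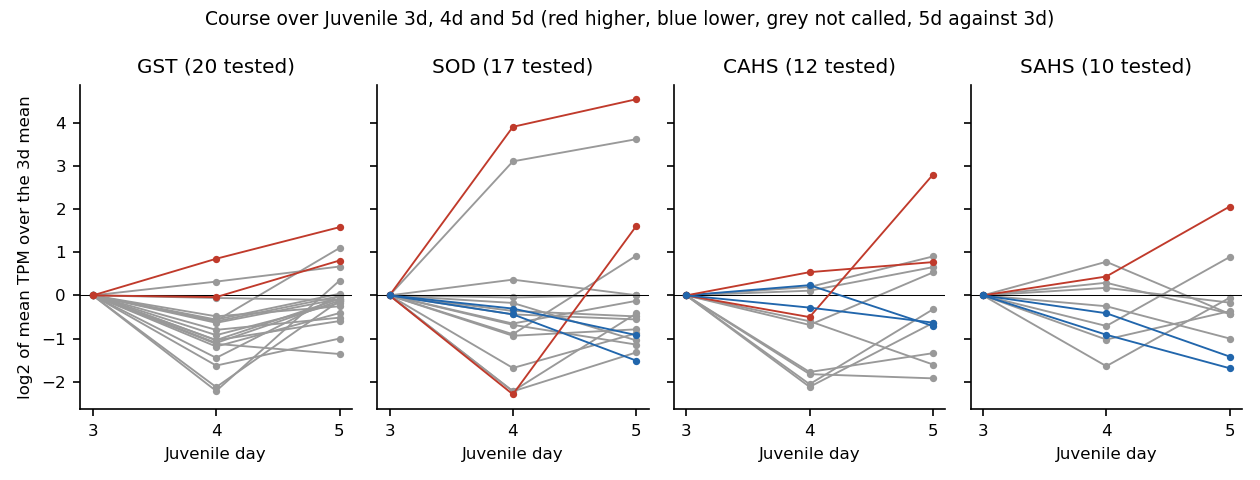
Each line is a tested GST, SOD, CAHS or SAHS transcript, with the log2 of its mean TPM over its Juvenile 3d mean on the y axis for Juvenile 3d, 4d and 5d (n = 3 libraries per day), red where it was called higher and blue where it was called lower at Juvenile 5d than 3d. For 16 of the 20 GST lines Juvenile 4d is the lowest point, and the SOD, CAHS and SAHS panels hold lines that end above 0 as well as below it.

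Of the SAHS transcripts, 10 of 13 were tested, 1 was called higher, 2 lower and 7 were not called. Among all tested, 11.5% were called higher and 7.97% lower. The median log2 fold change of the list was -0.39, beside -0.02 for all transcripts tested. The summed level was 43164 to 49113 TPM at Juvenile 3d and 26857 to 32553 TPM at Juvenile 5d, without overlap, a description with no test. The transcript called higher, g1122.t1, had 241, 217 and 221 TPM in the Juvenile 3d libraries and 787, 973 and 1063 TPM in the Juvenile 5d libraries. It rose by 2.04 (± 0.51 SE, edgeR adjusted p = 0.0118) on the log2 scale and was called in each fit that left out a library. Its Juvenile 5d libraries were all above the Juvenile 4d ones, at 341, 257 and 320.4 TPM.

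Both SAHS transcripts called lower belong to a run of adjacent gene numbers. For g1672.t1 the levels were 406, 408 and 419 TPM in the Juvenile 3d libraries and 149, 124 and 189 TPM in the Juvenile 5d libraries, without overlap. It fell by 1.41 (± 0.43 SE, edgeR adjusted p = 0.0314) on the log2 scale. The call was lost in the fits without Juvenile 3d replicates 1, 2 and 3 (edgeR adjusted p = 0.0639, 0.0762 and 0.0868) and Juvenile 5d replicates 1 and 2 (0.102 and 0.123). For g1669.t1 they were 10633, 8339 and 9106 TPM in the Juvenile 3d libraries and 2247, 3108 and 3371 TPM in the Juvenile 5d libraries, also without overlap. At -1.67 (± 0.55 SE, edgeR adjusted p = 0.0463) on the log2 scale it was called. That call was close to the threshold and was lost in 15 of the 18 fits with a library left out, although its change kept its sign in all of them, between -1.80 and -1.49. It was also lost with DESeq2 size factors in edgeR (adjusted p = 0.0510) and without the filter on low counts (edgeR adjusted p = 0.0533). The most abundant of the list, g1671.t1, had 20182, 19169 and 18219 TPM in the Juvenile 3d libraries and 7248, 9620.0 and 11951 TPM in the Juvenile 5d libraries, lower in every Juvenile 5d library. A change of -0.98 (± 0.43 SE, edgeR adjusted p = 0.123) on the log2 scale was not called in the main fit and was called with the 2 days alone (edgeR adjusted p = 0.0126).

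Dsup, LEAM and MAHS are further tardigrade proteins, and none was called. Dsup (g4591.t1), which binds chromatin and shields DNA from damage, had 110.1, 120.2 and 96.3 TPM in the Juvenile 3d libraries and 102, 77.7 and 87.3 TPM in the Juvenile 5d libraries. These overlapped, and the change of -0.27 (± 0.16 SE, edgeR adjusted p = 0.252) on the log2 scale had an interval of -0.60 to 0.06. Its Juvenile 4d libraries were above both, at 163, 147 and 151 TPM. LEAM (g2978.t1), a mitochondrial LEA protein, had 419.7, 433 and 441 TPM in the Juvenile 3d libraries and 334, 345 and 326 TPM in the Juvenile 5d libraries, lower in every Juvenile 5d library. The change of -0.34 (± 0.27 SE, edgeR adjusted p = 0.437) on the log2 scale came with an interval of -0.92 to 0.24. MAHS (g6834.t1), a mitochondrial abundant heat soluble protein, had 166, 108 and 132 TPM in the Juvenile 3d libraries and 281, 220.2 and 227 TPM in the Juvenile 5d libraries. Each Juvenile 5d library was higher, and the change of 0.85 (± 0.43 SE, edgeR adjusted p = 0.189) on the log2 scale passed the test with the 2 days alone (edgeR adjusted p = 0.0102) but not in the main fit.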

How the data were processed

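The authors amplified mRNA of whole juveniles by the SMARTer method and sequenced single-end reads. They quantified these with kallisto on predicted coding sequences (0.42.4 in the methods; the submitters' processing notes also list 0.44.0), and deposited estimated counts without normalization and TPM values scaled by effective length and library total. Reads shared by similar transcripts were divided between them. Without molecular identifiers PCR copies count as reads, so intervals from counts cover counting error only. The labels give Juvenile 2d to 7d and the paper's methods days 3–7, and the labels were used. No reference name matched the identifiers (0 of 14532), so no sequence or genome position is given, and names are the study's.

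Estimated counts were rounded to whole numbers. The main test was the quasi-likelihood F test of edgeR (version 4.0.16, R version 4.3.3) after filterByExpr by day (minimum count 10) and TMM, fitted to the 18 libraries with a term for day alone. Benjamini-Hochberg adjustment covered every transcript tested. The study's DESeq2 calls came from other counts, not used here. Standard errors are the absolute log2 fold change over the square root of F. Ratios of summed counts are scaled by the library sizes after TMM. Alternatives were other sets of libraries, DESeq2 size factors, DESeq2 1.42.0, limma 3.58.1 on log2(TPM + 1) and log2(TPM + 0.1), other filters, counts summed per gene, a replicate block and each library left out. Summaries used Python 3.11.15 (scipy 1.17.1, pandas 2.3.3, numpy 2.4.6), and matplotlib 3.10.9 drew the figures. The tests were tried on simulated data in which 200 transcripts had a log2 change of 2 at Juvenile 5d. There edgeR recovered 70.5% over 10309 transcripts and 5.37% of its 149 calls were false. DESeq2 recovered 77%, and 11% of its 173 calls were false. For Juvenile 4d against 3d, simulated without change, edgeR made 0 calls. In the simulation the fit with only Juvenile 3d and 5d made fewer calls than the main fit, 114 against 149. In the data it made more, 3223 against 2036. The simulation thus did not reproduce how the calls depended on the libraries fitted, so its rates cannot be taken as error rates here.

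The lists are those the study displays: 12 molting pathway, 8 HOX, 3 catalase, 21 GST, 17 SOD, 14 thioredoxin, 7 argonaute, 15 CAHS and 13 SAHS transcripts, and Dsup, LEAM and MAHS. Members and lists were chosen with earlier results of these data known. Named were all molting pathway and catalase transcripts, Dsup, LEAM and MAHS, and in each other list the member with the highest mean TPM and up to 4 called members with the smallest adjusted p. Of the unnamed transcripts, the 2 largest rises and 2 largest falls are given among calls with non-overlapping libraries, at least 10 TPM on the higher day and whole counts in the 6 libraries.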

Additional observations from a re-analysis of the deposited data

How the results depend on the processing

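The number of transcripts called between Juvenile 3d and 5d depended most on which libraries set the spread. It was 2036 with all 18, 3223 with the 2 days compared and 3744 with Juvenile 2d to 5d, with 2066 higher and, for the lower calls, 1462 and 1678 in these fits. With 1 library left out it ranged from 1178 to 2892, the higher calls from 768 to 1676 and the lower calls from 361 to 1216. The higher calls were 768 and 796 in the fits without Juvenile 3d replicates 2 and 3. The lower calls were 520, 410 and 447 in those without Juvenile 3d replicates 1, 2 and 3 and 422 and 361 in those without Juvenile 5d replicates 1 and 2. The other alternatives gave between 1705 (limma on log2(TPM + 0.1)) and 2331 (DESeq2) calls. For Juvenile 4d against 3d the number was 3006 with the days compared, 3392 with Juvenile 2d to 5d and 490 to 2265 with 1 library left out. It was 851 and 490 in the fits without Juvenile 3d replicates 2 and 3, 534 in that without Juvenile 4d replicate 1 and 2265 in that without Juvenile 6d replicate 1. For Juvenile 5d against 4d it was 4496 with Juvenile 2d to 5d and 1640 (without Juvenile 5d replicate 2) to 3497 with 1 library left out. Juvenile 4d against 2d ranged from 4182 to 5725 and Juvenile 6d and 7d against 2d from 4053 to 5910 with 1 left out.

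No named transcript changed its direction where it was called. Over the named transcripts, including the 4 without a name, and their alternatives, 1142 values stayed on their side of the threshold, 76 called values lost the call and 27 gained one, 58 and 7 of these with a library left out. The cause was not tested.

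The replicate numbers in the titles did not pair the libraries: deviations from the daily means of same-numbered Juvenile 3d and 5d libraries correlated at -0.08, -0.16 and -0.05. With a replicate block 1730 transcripts were called, 1054 higher and 676 lower, and sad (edgeR adjusted p = 0.0564), SOD g11595.t1 (0.0551) and SAHS g1669.t1 (0.0641) lost their calls.

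The depth limits transcripts with few reads: a count of 0 allows up to 3 counts, or 0.642 to 0.887 CPM in the libraries of Juvenile 3d and 5d.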
